A study of Mus musculus with 4 samples.

Results

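Acute phase plasma proteins are secreted mainly by hepatocytes, and their plasma levels shift with inflammation and injury. Their expression was examined here in 4 bulk RNA-seq libraries of mouse liver tumours through 10 genes chosen by name: Saa1, Saa2, Saa3, Orm1, Orm2, Hp, Hpx, Lcn2, Itih4 and Crp. All 10 were found among the 48526 gene identifiers of the count tables. The 8 genes Saa1, Saa2, Orm1, Orm2, Hp, Hpx, Itih4 and Crp are made largely by hepatocytes, and were set against Saa3 and Lcn2, which tumour and myeloid cells also make. The AKK group (AKK 1 and AKK 2, n = 2) came from C57BL/6 mice given 5000000000 colony-forming units of Akkermansia muciniphila by mouth, and the PBS group (PBS 1 and PBS 2, n = 2) from C57BL/6 mice given phosphate-buffered saline. In both groups dosing began 2 weeks before a methionine- and choline-deficient (MCD) diet, which causes fatty liver, and went on through the diet's 2 weeks. Both groups then received an orthotopic graft of RIL-175, a mouse hepatoma line that carried luciferase, in the liver. Bacterial feeding stopped for 6 days after surgery and was then taken up again until the tumours were collected. Neither age nor sex of the mice is given in the labels, nor whether each library is 1 animal, so the tests measure the spread between these libraries. RIL-175 tumours in a mouse liver can hold tumour cells, host hepatocytes, immune cells and stroma, and in such bulk samples fewer cells of a type and less RNA per cell cannot be told apart.

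The acute phase response is switched on mostly by interleukin 6, acting through its gp130 receptor and the transcription factor STAT3, and by interleukin 1, acting through NF-kB, with C/EBP factors as partners of both. Its products bind heme, haemoglobin, lipids or microbial molecules, and several are used as blood markers of inflammation. Albumin and transthyretin, by contrast, are negative acute phase proteins, whose production by the liver drops in inflammation.

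The libraries held between 48912489 and 59027227 reads on genes. A count of 0 reads allows up to 3 reads, worth 0.0514 to 0.0631 CPM (reads as a share of the TMM-scaled library), for counting error only. AKK 1 stood apart from the other libraries in its mitochondrial reads, with 3.92% of gene reads against 1.64 to 2.33%. The deposited tables are named in different patterns in the AKK and PBS groups. If this reflects different cohorts, their effect and that of feeding cannot be told apart. The keratin Krt8, a marker of epithelial and hepatoma cells, read 2511 and 2610 CPM in AKK 1 and AKK 2, against 1443 and 2632 CPM in PBS 1 and PBS 2, and was abundant in all 4 libraries.

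All 8 hepatocyte-made genes and Lcn2 lay higher in both AKK tumours than in both PBS tumours, by a fitted factor of 14.3 (Hpx) or more, while Saa3 overlapped between the groups. None of the 10 passed an adjusted p of 0.05 in the edgeR quasi-likelihood test, which called 0.00572% of the 17479 genes tested as higher and 0% as lower, the 1 gene called being no member. At an unadjusted p under 0.05 in edgeR, 9 of the 10 lay higher and 0 lower, where 6.7% of all genes tested passed as higher and 8.62% as lower. DESeq2 called 8 of the 10 as higher, leaving out Saa1 and Saa3, and 0 as lower, where it called 2.08% of all genes as higher and 3.04% as lower. With each library left out in turn, all members but Saa3 kept log2 fold changes above 0, the lowest at 2.95 (Hpx without AKK 1). Both AKK libraries were above both PBS libraries in 9 of the 10, against 26.7% of all genes tested, and 9 of the 10 had a log2 fold change above 0, against 51.8%. The median log2 fold change of the 10 genes was 5.53, against 0.02 over all genes. All 10 genes passed the filter on low counts, but Saa1, Saa2, Orm1, Orm2, Itih4 and Crp could not have passed it from the PBS libraries alone. Entry through their AKK reads favoured a position above PBS, so the counts and the median that include these 6 are descriptions and no support. With 2 libraries per group, an exact two-sided permutation test of a single value cannot go below p = 0.333.

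**Figure D1:**
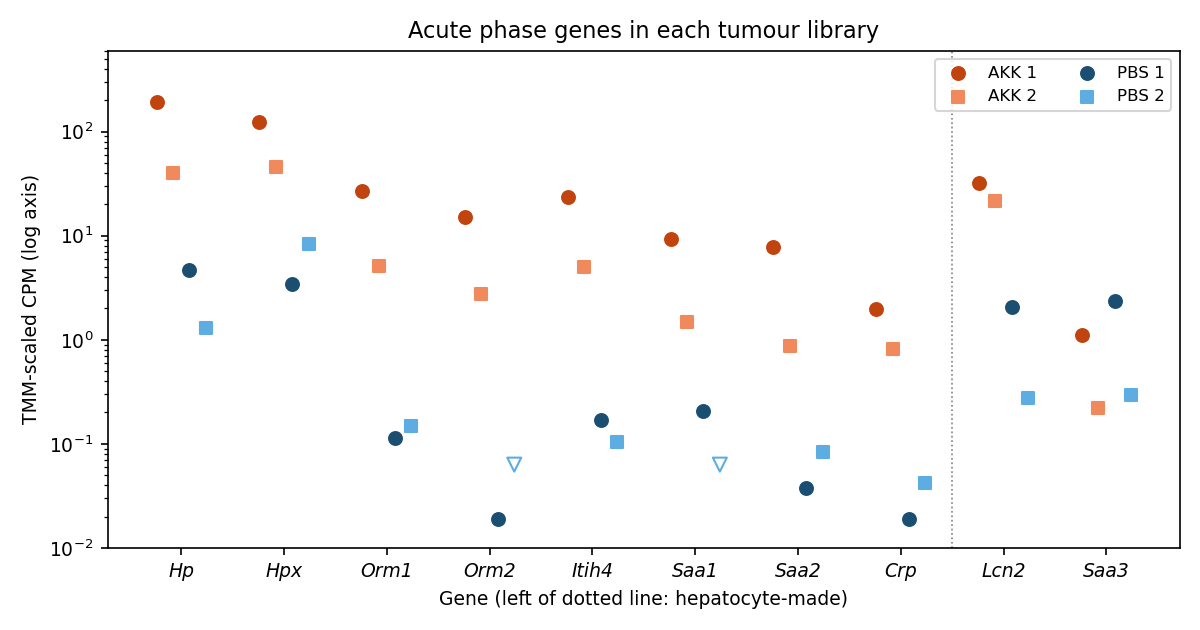
TMM-scaled CPM (log axis) of the 10 acute phase genes in AKK 1, AKK 2, PBS 1 and PBS 2; each symbol is 1 library, and hollow triangles mark 0 reads, drawn at the level of 3 reads. The 8 hepatocyte-made genes and Lcn2 lie higher in both AKK libraries, with AKK 1 the highest, and Saa3 is highest in PBS 1 at 2.36 CPM.

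Haptoglobin (Hp) captures free haemoglobin, and hemopexin (Hpx) captures free heme for uptake by the liver. Hp read 195 and 40.4 CPM in AKK 1 and AKK 2, against 4.72 and 1.30 CPM in PBS 1 and PBS 2. Its lower AKK library was several times above its higher PBS library, yet its log2 fold change of 5.28 (SE 0.99, n = 2 per group) had an adjusted p of 0.182 in edgeR. Hpx read 123 and 45.4 CPM in AKK, against 3.43 and 8.41 CPM in PBS. Its log2 fold change of 3.84 (SE 0.65, adjusted p = 0.182 in edgeR) was the smallest of the 8 hepatocyte-made genes. The PBS libraries ordered the pair differently: PBS 1 held more Hp than PBS 2, and PBS 2 more Hpx than PBS 1. There were 633 and 1124 Hpx reads per 1000 Hp reads in AKK 1 and AKK 2, against 726 in PBS 1 and 6452 in PBS 2. Per kilobase of annotated exon, Hp and Hpx were the highest of the 10 genes in every library, at 121 (Hp) and 82.3 (Hpx) CPM per kb in AKK 1 and 0.812 (Hp) and 5.61 (Hpx) CPM per kb in PBS 2. The same genes held ranks 1 and 2 with the length of the longest coding transcript.

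Orm1 and Orm2 encode forms of alpha-1-acid glycoprotein, a plasma protein that binds drugs and modulates immune cells. Orm1 read 26.8 and 5.17 CPM in AKK 1 and AKK 2, against 0.112 and 0.147 CPM in PBS 1 and PBS 2 (log2 fold change 6.92, SE 0.99, adjusted p = 0.182 in edgeR). Orm2 had 860 and 162 reads in AKK, against 1 and 0 reads in PBS (log2 fold change 9.53, SE 1.38, adjusted p = 0.182 in edgeR). Summed over libraries, that is an 897-fold ratio with a 95% counting interval of 161 to 35481, so its size is set by a single read in PBS. The AKK libraries kept a steady proportion of the pair, with 568 and 536 Orm2 reads per 1000 Orm1 reads. Itih4, a heavy chain of the inter-alpha-trypsin inhibitor family that circulates in plasma, read 23.7 and 4.98 CPM in AKK, against 0.169 and 0.105 CPM in PBS (log2 fold change 6.68, SE 0.96, adjusted p = 0.182 in edgeR). Crp encodes C-reactive protein, a pentraxin that is a strong acute phase reactant in humans and a weak one in mice. It had 111 and 48 reads in AKK, against 1 and 2 reads in PBS, a 46.5-fold ratio of summed reads (95% counting interval 15.6 to 228). Its log2 fold change was 5.44 (SE 0.85, adjusted p = 0.182 in edgeR). The counting intervals of Orm2 and Crp leave out the spread between libraries. Crp was the lowest of the 8 hepatocyte-made genes per kilobase of exon in both AKK libraries, at 0.570 and 0.239 CPM per kb.

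Serum amyloid A proteins travel on high-density lipoprotein and are among the most inducible proteins of the mouse liver. Saa1 had 524 and 86 reads in AKK 1 and AKK 2 (9.27 and 1.47 CPM), against 11 and 0 reads in PBS 1 and PBS 2 (0.206 CPM in PBS 1). Saa2 had 443 and 51 reads in AKK (7.84 and 0.873 CPM), against 2 and 4 reads in PBS (0.0375 and 0.0841 CPM). Both lay higher in AKK, with log2 fold changes of 5.63 (Saa1, SE 1.46, adjusted p = 0.218) and 6.13 (Saa2, SE 1.30, adjusted p = 0.187) in edgeR. The symbols Saa1 and Saa2 have been used for each other, and RefSeq lists each as a synonym of the other, so the identifiers ENSMUSG00000074115.5 (Saa1) and ENSMUSG00000057465.5 (Saa2) fix which is meant.

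Saa3, the serum amyloid A made outside the liver by macrophages, fat cells and epithelia, showed no such separation. It had 63 and 13 reads in AKK 1 and AKK 2 (1.11 and 0.223 CPM), against 126 and 14 reads in PBS 1 and PBS 2 (2.36 and 0.294 CPM). The groups overlapped, each held a high and a low library, and the log2 fold change was -0.99 (SE 1.13, adjusted p = 0.685 in edgeR). Without PBS 1 the sign turned, to 1.17, in a fit with PBS 2 as the only PBS library. Per kilobase of exon Saa3 ranked 10 of 10 in both AKK libraries, against rank 3 in PBS 1 and rank 4 in PBS 2. On the length of the longest coding transcript it again ranked 10 in both AKK libraries, against 4 and 5 in PBS. There were 142 and 255 Saa3 reads per 1000 Saa2 reads in AKK 1 and AKK 2, against 63000 in PBS 1 and 3500 in PBS 2, the PBS values resting on the 2 and 4 reads of Saa2.

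Lipocalin 2 (Lcn2) binds bacterial siderophores and so withholds iron. It is stored in neutrophil granules and is also made by epithelia, tumour cells and stressed hepatocytes. Lcn2 read 32 and 21.5 CPM in AKK 1 and AKK 2, against 2.08 and 0.273 CPM in PBS 1 and PBS 2. The AKK values were 1.49 times apart, the smallest gap of the 10 genes, where the PBS values spread widely. Its log2 fold change was 4.49 (SE 0.88, adjusted p = 0.182 in edgeR). It went to 3.65 without PBS 2, 6.60 without PBS 1, 4.18 without AKK 1 and 4.75 without AKK 2. Each of these fits leaves a single library in 1 group, so only the sizes are given. Among neutrophil markers, 5 of 11 passed the filter and all 5 had log2 fold changes above 0 (median 0.96), with 0 past the threshold in edgeR or DESeq2. Retnlg, a marker that did not pass the filter, went the other way, with 3 and 1 reads in AKK, against 23 and 8 reads in PBS. The granule genes Camp, Ltf, Ngp and Mpo, markers of maturing neutrophils, had at most 4 reads in any library, and Ly6g had 0 in all. The summed neutrophil markers lay at 12.3 and 6.78 CPM in AKK, against 6.50 and 4.16 CPM in PBS. The calprotectin gene S100a9 read 2.58 and 0.959 CPM in AKK, against 1.12 and 0.463 CPM in PBS, and there were 12390 and 22446 Lcn2 reads per 1000 S100a9 reads in AKK, against 1850 and 591 in PBS. Of 9 epithelial and tumour markers, 5 had log2 fold changes above 0 and 4 below (median 0.05), with a summed level of 6276 and 5949 CPM in AKK, against 3447 and 7021 CPM in PBS. The adhesion gene Epcam was the 1 marker of these above both PBS libraries, with 127 and 197 reads in AKK, against 7 and 1 reads in PBS. Epcam could not have passed the filter from the PBS libraries alone, which favours such a position. Sox9 and Gpc3 lay below both PBS libraries. Whether neutrophils or epithelial cells had a part in the Lcn2 difference was not tested.

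The 250 bases before the annotated start of Saa1, Saa2, Saa3 and Lcn2 are shown because Saa1 and Saa2 lay together in these tumours while Saa3 did not, and Lcn2 lay with the hepatocyte-made genes. They are RefSeq sequences on GRCm38.p6, at chr7:46742981-46743230 (minus strand), chr7:46751583-46751832 (plus strand), chr7:46715677-46715926 (minus strand) and chr2:32387740-32387989 (minus strand). Each is written 5′ to 3′ along its gene, and capitals mark matches to 3 motifs searched on both strands. These were GGG, then 5 of any base, then CC (NF-kB), TTGCNNAA (C/EBP) and TTCNNNGAA (STAT).
Saa1: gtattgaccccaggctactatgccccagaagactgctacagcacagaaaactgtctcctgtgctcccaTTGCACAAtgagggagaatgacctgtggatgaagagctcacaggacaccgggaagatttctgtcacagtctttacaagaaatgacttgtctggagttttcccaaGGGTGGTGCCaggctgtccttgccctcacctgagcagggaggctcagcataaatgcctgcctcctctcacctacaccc
Saa2: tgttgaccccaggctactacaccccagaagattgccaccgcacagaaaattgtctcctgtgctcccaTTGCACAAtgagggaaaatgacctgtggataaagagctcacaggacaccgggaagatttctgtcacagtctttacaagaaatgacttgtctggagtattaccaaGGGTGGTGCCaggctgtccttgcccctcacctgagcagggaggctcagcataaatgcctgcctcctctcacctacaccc
Saa3: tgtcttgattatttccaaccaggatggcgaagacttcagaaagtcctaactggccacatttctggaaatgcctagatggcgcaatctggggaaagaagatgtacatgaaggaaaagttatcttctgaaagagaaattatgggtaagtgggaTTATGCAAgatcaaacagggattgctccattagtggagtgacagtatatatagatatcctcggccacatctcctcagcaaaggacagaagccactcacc
Lcn2: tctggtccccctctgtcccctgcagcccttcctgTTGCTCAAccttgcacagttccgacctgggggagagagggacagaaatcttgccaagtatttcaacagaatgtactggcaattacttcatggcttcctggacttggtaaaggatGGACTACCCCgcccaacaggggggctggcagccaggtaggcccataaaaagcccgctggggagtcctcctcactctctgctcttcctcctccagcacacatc
Saa1 and Saa2 shared 94.8% of aligned bases, against 52.2% for Saa1 with Saa3, where all pairs but Saa1 with Saa2, among the 8 member promoters in the table, shared 45.5 to 54.5%. Each of the 4 held a C/EBP match. That motif occurred in 6 of the 8 members with a promoter in the table (Saa1, Saa2, Orm2, Hpx, Saa3 and Lcn2), and in 9.56% of the 32851 promoter windows of the same length. An NF-kB match occurred in 5 of the 8 (Saa1, Saa2, Itih4, Crp and Lcn2), and in 45.8% of all windows. A STAT match occurred in 1 of the 8 (Itih4), and in 7.02% of all windows. No match to 1 motif overlapped a match to another in the 4 windows shown. Orm1 and Hp have no entry. A match is a description of letters and not of binding.

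**Figure D2:**
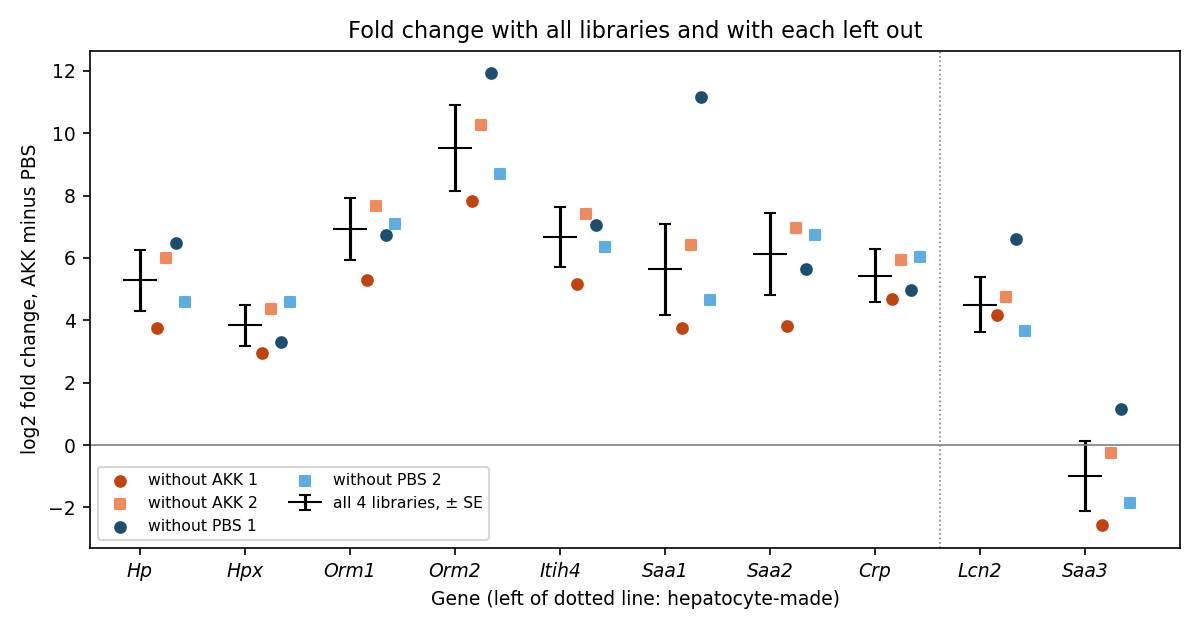
Log2 fold change (AKK minus PBS) of each gene with all 4 libraries (black, ± SE) and with each library left out in turn (coloured points). Only Saa3 crosses 0, between -2.57 without AKK 1 and 1.17 without PBS 1, and the lowest value of the other 9 genes is 2.95 (Hpx); the points of Saa1 and Orm2 without PBS 1 are set against 0 reads in PBS 2.

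The 2 AKK tumours differed from each other in these genes. AKK 1 exceeded AKK 2 in all 10, by 1.49 (Lcn2) to 8.97 times (Saa2) in CPM, with Hpx at 2.72 and Hp at 4.82 times. Albumin (Alb), the main plasma protein of hepatocytes, was 6.15 times higher in AKK 1 than in AKK 2, a gap within the range of the members. Alb had 8820 and 1481 reads in AKK 1 and AKK 2, against 16 and 47 reads in PBS 1 and PBS 2. Of 21 other hepatocyte genes, such as Cps1 and Cyp2e1, 20 were tested, 19 had a log2 fold change above 0 and 18 lay above both PBS libraries, with a median of 5.31 (5.27 with genes at 0 reads in PBS set to their bound). DESeq2 called 16 of them as higher, and edgeR 0, with 18 at an unadjusted p under 0.05. Their summed level was 288 and 186 CPM in AKK, against 99.3 and 204 CPM in PBS. The transcription factor gene Hnf4a alone made up 16.9 and 64.2% of its reads in AKK 1 and AKK 2, against 75.4 and 82.7% in PBS 1 and PBS 2. Of the 20 tested, 14 could not have passed the filter on low counts from the PBS libraries alone, which favours a position above PBS, and these include 13 of the 16 DESeq2 calls. The other 6 had more PBS reads, and 4 of them lay above both PBS libraries. Fah, an enzyme gene of tyrosine breakdown, had 1322 and 1082 reads in AKK, against 542 and 499 reads in PBS. Apoc3, an apolipoprotein gene, had 950 and 66 reads in AKK 1 and AKK 2, against 0 and 1 reads in PBS 1 and PBS 2, and Cps1, a urea cycle enzyme gene, had 130 and 22 reads in AKK, against 3 and 1 reads in PBS.

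Reads of each member were therefore also set against hepatocyte reads of the same library, which removes the library's depth. Per 1000 reads of the whole hepatocyte list, 9 members were higher in AKK. Hp, for example, stood at 676 and 218 per 1000 in AKK 1 and AKK 2, against 47.6 and 6.40 in PBS 1 and PBS 2. Against Alb reads the order turned: pooled over libraries, 9 of the 10 were lower in AKK and only Orm2 was higher. Library by library, however, 4 (Saa2, Hpx, Crp and Saa3) were below both PBS libraries, Orm2 was above both, and 5 overlapped. For Saa1, Orm1 and Itih4 the pooled sign came from PBS 1, with its 16 Alb reads, since PBS 2 lay below both AKK libraries. Against Apoa1, an apolipoprotein of the liver, the pooled count was the same, again with 4 below both PBS libraries, 1 above both and 5 overlapping. Against transthyretin (Ttr) 3 were lower when pooled (Hpx, Saa3 and Lcn2) and 7 higher, with 1 below both PBS libraries, 4 above both and 5 overlapping. No test was made of these ratios.

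Within the AKK tumours, Saa1 and Orm2 stood in nearly the same proportion to Alb although the reads of both differed severalfold between the libraries. Saa1 had 59.4 reads per 1000 Alb reads in AKK 1 (95% exact binomial interval 54.3 to 64.9) and 58.1 in AKK 2 (46.2 to 72.2). Orm2 had 97.5 (90.8 to 105) and 109 (92.4 to 129). In PBS 1 and PBS 2 the corresponding Saa1 values were 688 (288 to 1577) and 0 (0 to 81.6). Others were less even in AKK 1 and AKK 2. Per 1000 Alb reads, Orm1 had 172 and 204, Crp had 12.6 and 32.4, and Saa2 had 50.2 and 34.4. Hpx had 791 and 1790, and Lcn2 had 205 and 849. Per 1000 Ttr reads, Saa1 and Orm2 were less even too, at 450 and 652 (Saa1) and 739 and 1227 (Orm2) in AKK 1 and AKK 2. In PBS 1 and PBS 2, Hpx had 11438 and 8511 reads per 1000 Alb reads and Lcn2 had 6938 and 277, so that Hpx exceeded Alb in both PBS libraries and Lcn2 only in PBS 1. Saa3 stood furthest from albumin, with 7.14 and 8.78 reads per 1000 Alb reads in AKK, against 7875 in PBS 1 and 298 in PBS 2. The intervals cover counting error only, and the 16 and 47 Alb reads limit every PBS ratio.

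**Figure D3:**
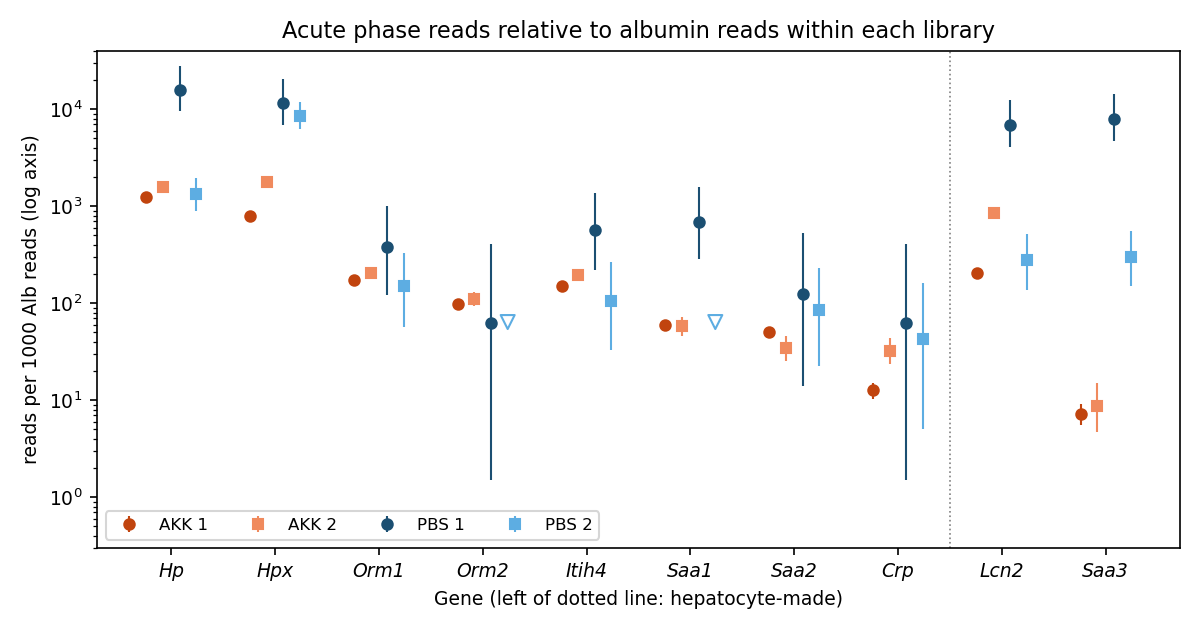
Reads of each acute phase gene per 1000 Alb reads of the same library (log axis), with 95% exact binomial intervals; hollow triangles mark 0 reads, drawn at 3 reads. In 8 of the 10 genes the interval of at least 1 PBS library overlaps that of AKK 1 or AKK 2. For Hpx and Saa3 both AKK libraries lie below both PBS libraries without such overlap. Saa2 and Crp also lie below both PBS libraries, but with overlapping intervals.

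Most other acute phase genes also lay higher in AKK. Of 20 further genes, 19 had a log2 fold change above 0 and 1 below, with a median of 2.85 against 0.02 over all genes tested, and 15 lay above both PBS libraries. The fibrinogen beta chain gene Fgb, which forms the clot with its partner chains, rose in AKK and was the 1 gene that edgeR called. It read 75.4 and 50.8 CPM in AKK, against 0.112 and 0.189 CPM in PBS (log2 fold change 8.70, SE 0.41, adjusted p = 0.0160), and edgeR called 0 genes without AKK 1 or AKK 2. DESeq2 called 13 of the 20 as higher and 0 as lower. Serum amyloid P (Apcs), the pentraxin that serves in mice as the strong acute phase reactant, had 170 and 55 reads in AKK, against 0 and 1 reads in PBS. The hepcidin gene Hamp, which controls iron release, had 917 and 27 reads in AKK, against 0 and 0 reads in PBS, at least 140-fold higher with 3 reads per PBS library. AKK 1 carries that bound, and AKK 2 on its own was at least 7.75-fold higher. Of these 20 genes, 10 could not have passed the filter from the PBS libraries alone, among them 9 of the 13 that DESeq2 called. Fgb, with 6 and 9 reads in PBS, is also among these 10. Entry through AKK reads favours a position above PBS, so the edgeR call of Fgb carries the same limit. In Serpina3n and Lbp, by contrast, the groups overlapped. The protease inhibitor gene Serpina3n read 9.08 and 10.7 CPM in AKK, against 25.7 and 1.05 CPM in PBS. The lipopolysaccharide-binding protein gene Lbp read 43 and 75.2 CPM in AKK, against 79.9 and 28.1 CPM in PBS. In each, PBS 1 was the highest library and PBS 2 the lowest.

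The negative acute phase genes lay in the same direction as the positive ones. All 7 tested of 8 had log2 fold changes above 0 and lay above both PBS libraries, with a median of 5.18, and 5 of the 7 could have passed the filter from the PBS libraries alone. edgeR called 0 of them and DESeq2 called 6 as higher. The fetuin gene Ahsg read 77.5 and 30.1 CPM in AKK, against 0.131 and 0.294 CPM in PBS (log2 fold change 7.99, SE 0.69, adjusted p = 0.111 in edgeR). With 7 and 14 reads in PBS, Ahsg was not among the 5 and entered through its AKK reads, which favours a position above PBS. Alb read 156 and 25.4 CPM in AKK, against 0.300 and 0.988 CPM in PBS (log2 fold change 7.15, SE 1.12, adjusted p = 0.182 in edgeR).

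Genes of the inducing signals lay on both sides of 0. Of 25 genes for cytokines, receptors and transcription factors, 14 had log2 fold changes above 0 and 11 below, with a median of 0.05, and edgeR called 0. DESeq2 called 1, the leukaemia inhibitory factor receptor gene Lifr, as lower. Lifr read 29.8 and 32.2 CPM in AKK, against 67 and 53.2 CPM in PBS (log2 fold change -0.96, SE 0.20, adjusted p = 0.187 in edgeR). The glucocorticoid receptor gene Nr3c1, which mediates the cortisol-like signal in the response, read 43.3 and 35.2 CPM in AKK, against 52.2 and 83.4 CPM in PBS (log2 fold change -0.79, SE 0.28, adjusted p = 0.287 in edgeR). The interleukin 6 gene Il6 read 1.77 and 2.33 CPM in AKK, against 1.97 and 0.757 CPM in PBS. Socs3, the feedback inhibitor that STAT3 induces, read 123 and 102 CPM in AKK, against 95 and 99 CPM in PBS (log2 fold change 0.22, SE 0.19, adjusted p = 0.593 in edgeR).

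Receptors and clearance genes of the acute phase proteins had 4 of 12 log2 fold changes above 0 and 8 below, with a median of -0.13. edgeR called 0 and DESeq2 called 1 as lower. That gene was Lrp2 (megalin), a receptor that takes up lipocalin 2, with 0 and 2 reads in AKK, against 69 and 25 reads in PBS. The haemoglobin scavenger receptor gene Cd163 read 0.902 and 0.171 CPM in AKK, against 3.88 and 0.694 CPM in PBS (log2 fold change -2.09, SE 1.07, adjusted p = 0.399 in edgeR).

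Kupffer cells are the macrophages that live in the liver, and their markers lay higher along with the hepatocyte-made genes. In 6 of 7 markers the AKK libraries exceeded both PBS libraries. Their median log2 fold change was 5.32, with 0 called by edgeR and 4 called as higher by DESeq2. Of the 7, 5 could not have passed the filter from the PBS libraries alone, among them all 4 that DESeq2 called. They had a summed level of 23.4 and 4.98 CPM in AKK, against 2.59 and 1.93 CPM in PBS. The defining marker Clec4f had 112 and 23 reads in AKK, against 1 and 0 reads in PBS. General macrophage and monocyte markers had 2 of 9 log2 fold changes above 0 (median -0.36). Of these markers edgeR called 0, and DESeq2 called 1 (Mpeg1) as lower. Their summed level was 536 and 531 CPM in AKK, against 779 and 603 CPM in PBS. Endothelial markers had 4 of 4 log2 fold changes below 0 (median -1.33), of which edgeR called 0 and DESeq2 3. Fibroblast markers had 2 of 6 above 0 (median -0.19). Whether the amount of host liver in the samples had a part in the acute phase differences was not tested.

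**Figure D4:**
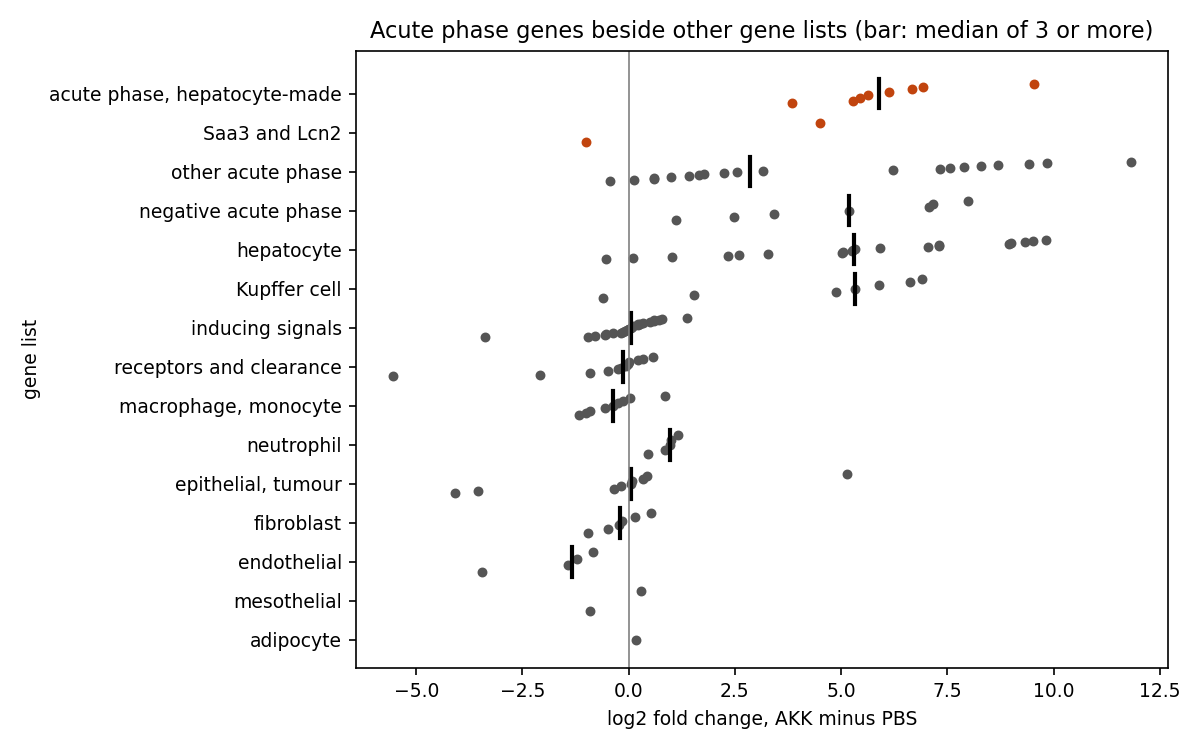
Log2 fold change (AKK minus PBS) of each tested gene (points) by gene list, with black bars at the median of lists with 3 or more genes. The hepatocyte-made acute phase genes (median 5.88), the negative acute phase genes (5.18), hepatocyte markers (5.31) and Kupffer cell markers (5.32) lie together, and the inducing signals (0.05) lie around 0.

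The expression profiles of the members were also compared with those of other genes, by the distance between log2 CPM values centred over the 4 libraries. Among 11238 genes whose 4 log2 CPM values average 1 or more, the mean profile of the 8 hepatocyte-made genes was nearest to the vitronectin gene Vtn, a plasma adhesion protein (distance 1.11). The immunoglobulin gene Ighg2c (1.55), Apoa1 (1.97) and Alb (2.00) followed. Of the members, Itih4 was nearest to that mean (0.67) and Saa3 the farthest (6.29). The 8 hepatocyte-made genes form that mean and Saa3 and Lcn2 do not, which favours shorter distances for the 8. Lcn2 lay closest to Hp (1.38), then Vtn (1.46), the complement gene C3 (2.20) and Ighg2c (2.43). Saa3 lay closest to the steroid-metabolising enzyme gene Akr1c18 (0.45), then Insm1 (0.53), Dkk2 (0.73) and Dpep3 (0.85). Akr1c18 read 3.43 and 0.873 CPM in AKK, against 7.82 and 0.736 CPM in PBS. With the cut set on edgeR's log2 of an average CPM instead, which AKK reads alone can carry, 11448 genes entered. Cyp2e1, a drug-metabolising cytochrome gene, was then nearest to the hepatocyte-made mean (0.37) and the kininogen gene Kng2 nearest to Lcn2 (0.83), while the 4 genes nearest to Saa3 were the same. These distances describe 4 libraries and have no test.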

How the data were processed

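Per the labels, total RNA of liver tumours was sequenced on an Illumina NovaSeq as pairs of 151 bp reads. The authors deposited raw counts for every gene, laid out like STAR's own gene tables. STAR 2.5.2 and RSEM 1.2.31 stand in the submitters' processing notes. For the build and annotation, a release is not given in the sources used here. Multimapping and ambiguous reads are kept apart from the gene rows in that layout. No 151-base window of the members' longest coding transcripts (GENCODE M21) matched another gene's transcript exactly. Of 50-base windows, 14.8% (Saa1), 9.12% (Saa2), 20.4% (Orm1) and 22.7% (Orm2) did, so the split within these pairs is less certain.

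The own-strand column, with 95.4 to 96.2% of stranded gene reads, was used. The 4 summary rows, which name no gene, were left out. They held 8.97 to 12.3% unmapped, 4.20 to 6.66% multimapping, 11.4 to 13.5% outside genes and 1.18 to 1.37% ambiguous reads. Symbols came from a table of gene names for 48058 of 48526 identifiers, matched without version. Lengths came from M21, where 8 of 10 members have the same identifier version.

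AKK was compared with PBS over 17479 genes in edgeR 4.0.16 (R 4.3.3; filterByExpr, TMM, legacy glmQLFit, glmQLFTest, two-sided, Benjamini-Hochberg adjustment at 0.05), with group as the only term. Log2 fold changes are AKK minus PBS with a prior count of 0.125, and SE comes from the F statistic. The fit was tested on simulated data. Distances between profiles used a prior count of 2. Alternatives were other scalings and filters, the unstranded column, the replicate number as a block, DESeq2 1.42.0, limma-voom (limma 3.58.1), the edgeR 4 form, thresholds of 0.1 and 0.01, and each library left out. Promoters were aligned with Biopython 1.88. The members and lists were chosen with earlier results of these data known. Genes were named by a rule: all 10 members, the called genes or else the 2 with the lowest p of each acute phase, signal and receptor list, Alb, Apoa1 and Ttr, defining cell markers, and the 4 nearest profiles. Apcs, Hamp, Serpina3n, Lbp, Il6 and Socs3 fall outside it and were chosen after their values were seen. Some genes that the rule names, and a ratio that rests on them, are not reported here.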

Additional observations from a re-analysis of the deposited data

How the results depend on the processing

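All 9 genes that lay higher in AKK kept that direction under each of up to 13 alternatives. Over member fold changes and alternatives together, 88 stayed on the same side of the threshold, 39 came to pass it and 1 reversed. That was Saa3, whose log2 fold change ran from -2.57 without AKK 1 to 1.17 without PBS 1. The calls, in contrast, depended on the test and on the filter. With all libraries and group as the only term, members called as higher numbered 0 in edgeR with filterByExpr. They numbered 9 in the same edgeR test with no filter on low counts, and 8 in DESeq2. Over all genes, 291 of 28148 were called as higher with no filter, and 357 of 17140 (2.08%) in DESeq2. With 1 library left out, the log2 fold changes of these 9 genes ran from 2.95 (Hpx without AKK 1) to 11.9 (Orm2 without PBS 1). Calls over all genes numbered 3 with upper-quartile scaling, 631 with no filter, 878 in DESeq2, 0 in limma-voom, 4 in the edgeR 4 form, 3 at a threshold of 0.1 and 0 at 0.01, and 0 to 324 with 1 library left out. The cause was not tested. Where 1 library was left out, the single one remaining in that group was taken to have the spread of the other group. No member was called lower under any alternative. The replicate number as a block gave 209 calls over all 17479 genes, 128 of them as higher, and 8 members called higher. The labels give no pairing by number, and deviations of same-numbered libraries correlated with r = -0.02 over 17479 genes, so the block is only a fit.

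Reads per hepatocyte read depended on the denominator, where the pooled log2 ratio (AKK over PBS) reversed against the hepatocyte list. Against Alb it was -1.56 (Saa1), -0.99 (Saa2), -0.23 (Orm1), -1.94 (Hp), -3.31 (Hpx), -0.49 (Itih4), -1.63 (Crp) and -2.73 (Lcn2). Against Apoa1 it was -1.48 (Saa1), -0.91 (Saa2), -0.15 (Orm1), -1.87 (Hp), -3.23 (Hpx), -0.41 (Itih4), -1.55 (Crp) and -2.65 (Lcn2). Against Ttr it was -1.34 (Hpx) and -0.76 (Lcn2). These are values pooled over the libraries of a group. Per Alb read, PBS 2 alone lay below both AKK libraries for Saa1, Orm1 and Itih4 and between them for Hp and Lcn2. For Lcn2, PBS 2 had 277 reads per 1000 Alb reads, below the pooled AKK value of 298. PBS 1, with 16 Alb reads, therefore set the signs of Saa1, Orm1, Itih4 and Lcn2. For Hp, PBS 2 had 1319, just above the pooled AKK value of 1298, so PBS 1 set most of the size and not the sign.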
